A study of Mus musculus with 36 samples.

Results

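The genes described here are those that separated tumors of every site from control kidney in mice carrying the ASPSCR1-TFE3 fusion. RNA levels were compared between 13 tumor units, each being all tumor libraries of a given mouse and site summed (6 kidney, 4 retro-orbital and 3 brain tumor units), and the kidneys of 3 control mice. A gene was taken as a member when every tumor unit lay above all 3 control mice (higher members) or below all 3 (lower members). Of 24335 genes that passed a filter on low counts, out of 53379 in the table, 2407 were higher members and 2294 were lower members. The tumors came from 6 mice of genotype Sglt2-Cre; ASPSCR1-TFE3 LSL/+, in which Cre under the Sglt2 promoter removes a stop cassette and switches on the fusion in the proximal tubule lineage. The controls carried Sglt2-Cre alone. Each control mouse gave a pair of kidney libraries, and non-transformed kidney from 4 of the fusion mice was also sequenced. A separate model, Pax8-Cre; ASPSCR1-TFE3 LSL/+, gave dysmorphic kidneys from 5 fetuses, set against kidneys of 3 fetuses labelled Pax8-Cre (the design text also allows the unrecombined fusion allele there). All tissue was formalin-fixed and paraffin-embedded, and ages were not given. Tumors of different sites often shared a mouse: the brain tumors came from mice 1, 2 and 4, and the retro-orbital tumors from mice 2, 3, 5 and 6.

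TFE3 is a basic helix-loop-helix transcription factor of the MiT/TFE family, with TFEB, TFEC and MITF, and binds short E-box sequences in the promoters of lysosomal, autophagy and pigment cell genes. In normal cells the Rag GTPases and folliculin hold these factors at the lysosome when nutrients are plentiful, and the fusion in translocation renal cell carcinoma keeps the DNA-binding part of TFE3 under the control of a partner protein. Tumors with TFE3 fusions are known for high GPNMB and cathepsin K and for melanocytic markers that are shared with perivascular epithelioid cell tumors (PEComa). Endogenous Tfe3 and Aspscr1 were not members, and the share of their counts that comes from the transgene was not analysed here.

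Because membership was defined by the order of tumors and controls, the separation from control kidney is a description, and no test against control is used to support it. The 3 sites were also set against the same 3 controls, so they are not independent of each other. The control tissue was kidney at every site, so for brain and retro-orbital tumors a difference from the tissue of location and a difference in tumor cells cannot be told apart. In bulk RNA, fewer cells of a type and less RNA per cell cannot be told apart either. Total counts per library are given with the processing. The summed level of 25 proximal tubule genes, in CPM (counts scaled to the TMM-adjusted library total), was 22064 to 23192 in the controls and 1090 to 18344 in kidney tumors, where the units of mice 5 and 4 held 18344 and 13987 CPM. Among retro-orbital tumors, that of mouse 5 stood apart with 2025 CPM of the same genes against at most 357 CPM in the others. Y-linked transcripts marked fusion mice 1 and 5 as male and the remaining fusion mice and all controls as female.

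By a single site, 3619 genes lay above and 3413 below all controls in kidney tumors, 6330 above and 6499 below in retro-orbital tumors, and 5395 above and 6346 below in brain tumors. The members shared by all sites were 9.89% of the genes tested above and 9.43% below, which is the background for every count by gene list. Of the members, 2439 also passed the edgeR threshold in the same direction at all 3 sites, a count that the rule itself largely fixed, since it used these contrasts, and from which nothing is read. Taking each site alone and either direction, edgeR called 19% of all genes in kidney tumors, 50.4% in retro-orbital tumors and 29.7% in brain tumors. The count of 2439 became 922, 660 and 704 without control mouse 1, 2 and 3, and no share of all genes was taken in those fits. In the 4 non-transformed kidneys, edgeR called 2 of 21019 genes against control (0.00952%).

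The gap between the groups was wider for higher than for lower members, and small for most members of either kind. The gap is the log2 ratio of the nearest tumor and control, with 0.1 CPM added to each. Its median size was 0.47 for higher and 0.25 for lower members. A gap of at least 2-fold was found for 689 of the 2407 higher and 56 of the 2294 lower members. One of at least 4-fold was found for 271 higher members and for 0 lower members, and a gap of at least 8-fold for 72 higher members. Of the higher members, 160 had at most 3 counts in every control mouse and so passed the filter through the tumors. Of the lower members, 6 had at most 3 counts in every tumor. Just inside the rule for higher members, Zfp37 was 7.08 CPM in its lowest tumor and 7.07 in its highest control, and Pkd2l1 was at 0.00938 CPM in its lowest tumor and 0.00923 in its highest control. Just outside it, Mobp and Scgb2b7 were at 0 in every control and also at 0 in a tumor. Just inside the rule for lower members, Narf and Ogn had a highest tumor of 26.3 and 78.4 CPM against a lowest control of 26.3 and 78.5 CPM. Just outside it, Acad8 and As3mt had a highest tumor of 42.8 and 52.7 CPM against a lowest control of 42.8 and 52.6 CPM.

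Kidney tumors most often lay nearest to the controls. The unit of mouse 5 was the nearest tumor for 26% of higher and 42.1% of lower members, that of mouse 4 for 10.8% and 26.6%, and that of mouse 1 for 20.1% and 8.2%. The brain tumor of mouse 2 was nearest for 12.3% of higher and 4.4% of lower members. Over the higher members, the median log2 ratio to the control mean was 1.14 to 1.75 in tumors of the kidney, 1.93 to 2.05 in those of the orbit and 1.73 to 2.04 in those of the brain. Over the lower members it was -1.49 to -0.61 in tumors of the kidney, -1.78 to -1.61 in those of the orbit and -2.02 to -1.69 in those of the brain. The kidney tumors of mice 1, 4 and 5, which held the most proximal tubule RNA, were the 3 closest to 0 in both directions, though not in the order of that RNA for higher members (1.24, 1.28 and 1.14, with 5580, 13987 and 18344 CPM), and the part of that RNA in these values was not tested. Over all genes tested the same median stayed between -0.12 and 0.02 in the tumor units. Without the kidney tumors of mice 4 and 5, the rule gave 2710 higher and 3294 lower members. With fewer units to order the rule tends to give more members, so this rise is not read as an effect of these mice.

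**Figure D1:**
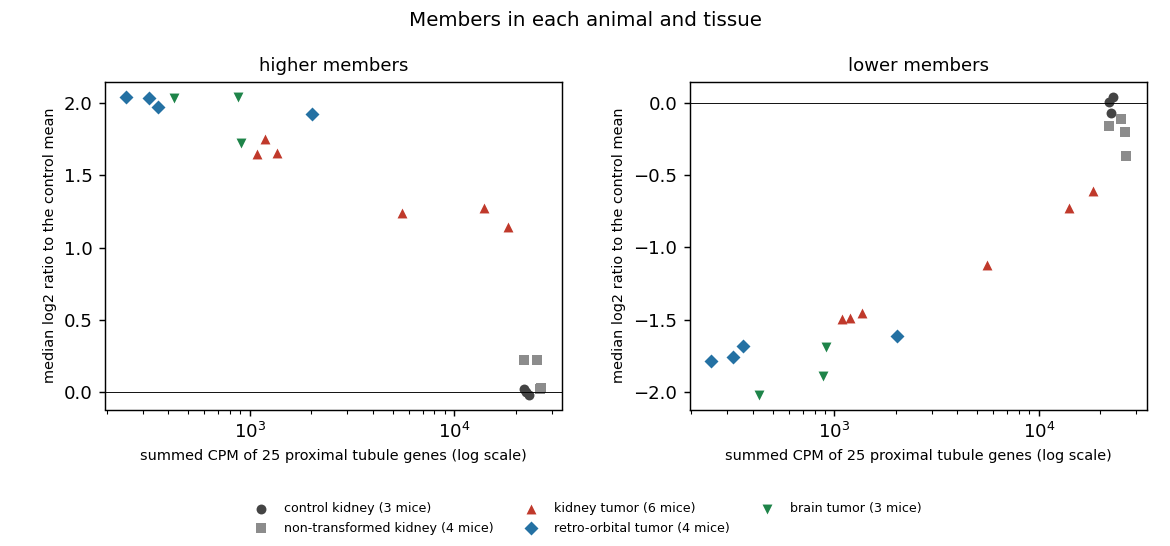
Median log2 ratio to the mean of the 3 control kidneys (y axis) over the 2407 higher members (left) and the 2294 lower members (right), against the summed CPM of 25 proximal tubule genes on a log scale (x axis); each point is 1 animal and tissue. Kidney tumors spread from 1.14 to 1.75 (left) and from -1.49 to -0.61 (right), and those of mice 1, 4 and 5, at over 1360 CPM of these genes, are the 3 closest to 0 in both panels; 14 of the 25 genes on the x axis are themselves lower members.

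Among the higher members Gpnmb, a glycoprotein of lysosomes and melanosomes and a known MiT/TFE target, had the widest gap (ENSMUSG00000029816.10, chr6:49036546-49070929). Kidney tumors held 2879 to 6969 CPM with a median of 4804. Retro-orbital tumors held 4240, 3984, 2954 and 4626 CPM, brain tumors 3076, 2695 and 4151 CPM, and control kidneys 2.42, 2.3 and 1.55 CPM. No tumor was thus under 2695 CPM and no control above 2.42 CPM. The site means were 2335-fold, 1892-fold and 1584-fold the control mean. The non-transformed kidneys lay between, at 109 to 453 CPM (n = 4).

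Hk2, which encodes the hexokinase that starts glycolysis in many tumors and in muscle, came next (ENSMUSG00000000628.10, chr6:82725025-82774454). It was 684 to 2463 CPM with a median of 1720 in kidney tumors, 1344, 1276, 1318 and 1351 CPM in retro-orbital tumors and 1500, 617 and 1302 CPM in brain tumors. The controls held 1.37, 1.16 and 1.52 CPM. The 4 retro-orbital tumors were almost level with each other, and the lowest tumor of any site was 407 times the highest control. In non-transformed kidney Hk2 was 18.7, 61.6, 49.6 and 16.5 CPM.

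Trpm1, a cation channel gene of melanocytes and retina that MITF is known to control, was next after Hk2 (ENSMUSG00000030523.18, chr7:64153835-64269775). Kidney tumors ranged from 142 to 490.2 CPM with a median of 278, and brain tumors were at 499, 658 and 179 CPM. All 4 retro-orbital tumors were higher than either, at 1343, 849, 1236 and 1116 CPM, and the controls were at 0.466, 0.13 and 0.383 CPM. Mir211, a miRNA gene within Trpm1 on the same strand and chosen after its values were seen, was also a higher member. It had 0 counts in every control, against 0.122 to 0.542 CPM in tumors of the kidney, 0.962 to 2.28 in those of the orbit and 0.133 to 0.589 in brain tumors. The tumor mean was 50.4-fold the floor of 3 counts per control mouse (0.0138 CPM). Total RNA libraries cannot tell a miRNA precursor from the intron around it. The mature forms, from RefSeq (build GRCm38.p6), are shown for what Mir211 encodes, with the seed (bases 2 to 8) in capitals.
mmu-miR-211-5p: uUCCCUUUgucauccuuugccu
mmu-miR-211-3p: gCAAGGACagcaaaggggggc

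**Figure D2:**
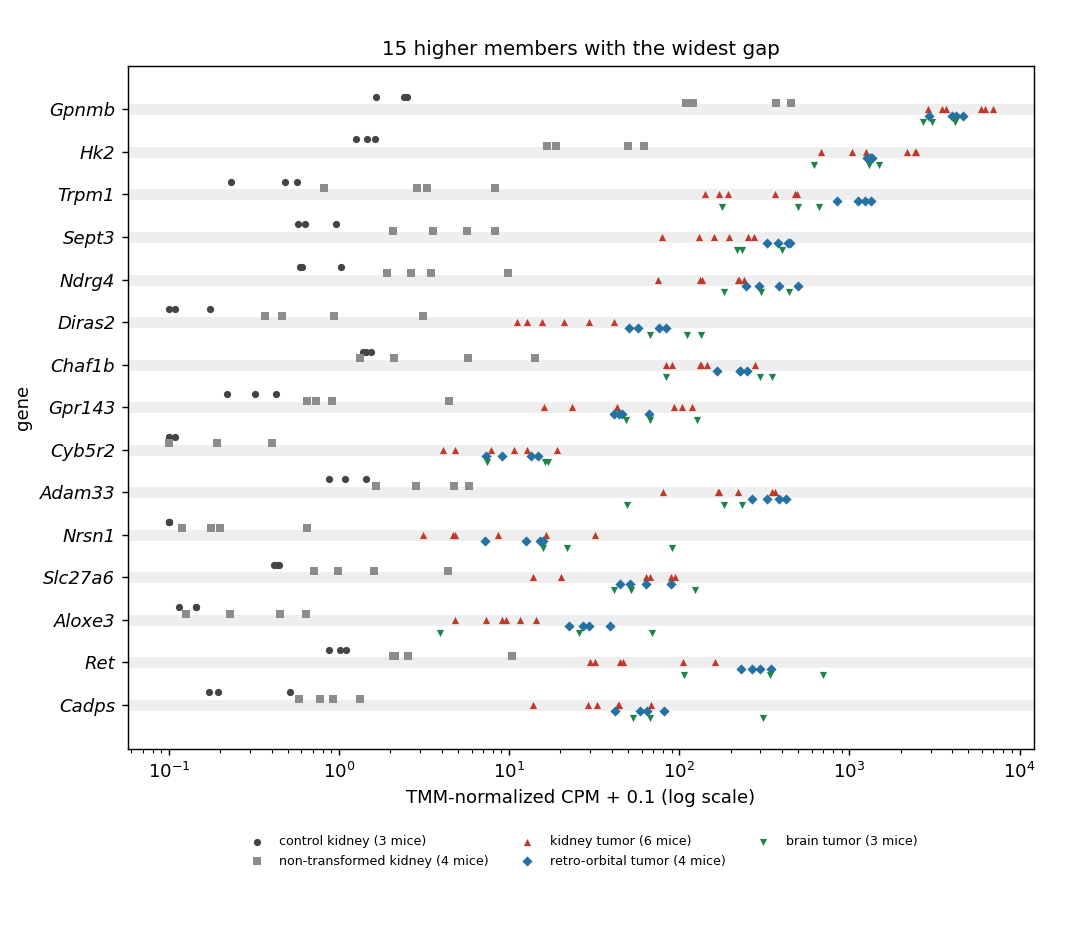
TMM-normalized CPM plus 0.1 on a log scale (x axis) of the 15 higher members with the widest gap (y axis), 1 point per animal and tissue. In every row the tumor points of all 3 sites lie to the right of the control points, and non-transformed kidneys lie mostly between; Gpnmb at the top has no tumor under 2695 CPM and no control above 2.42 CPM.

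Other genes in the group of 15 with the widest gap fell outside the lysosome and the pigment cell. Ret, a receptor tyrosine kinase needed for ureteric bud branching in the embryo, was 29.6 to 162 CPM with a median of 45.6 in kidney tumors. It was 297, 268, 229.6 and 346 CPM in retro-orbital tumors, 703, 107 and 341 in brain tumors and 0.771, 0.996 and 0.916 in controls, so the lowest tumor was 29.8 times the highest control. Chaf1b, a subunit of the histone chaperone that assembles nucleosomes on new DNA, was 83.9 to 279 CPM with a median of 133 in kidney tumors, 249.9, 228, 166 and 228 CPM in retro-orbital and 297, 83.7 and 349 CPM in brain tumors, against 1.43, 1.28 and 1.34 in controls. Adam33, a membrane metalloprotease gene, reached 226 ± 111 CPM in kidney tumors (SD, n = 6) and 1.03 ± 0.282 in controls (n = 3).

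Several of these genes are known from neurons. Ndrg4 was 171 ± 66.1 CPM in kidney tumors (SD, n = 6), 356 ± 110.3 in retro-orbital tumors (n = 4), 309 ± 131 in brain tumors (n = 3) and 0.64 ± 0.246 in controls (n = 3). Sept3, a septin gene, was 182 ± 73.9, 398 ± 55, 284 ± 102 and 0.619 ± 0.207 CPM in the same order. Diras2, a Ras-like GTPase gene, was 11 to 41.2 CPM in kidney tumors and 0 to 0.0739 in controls, and Cadps, a gene for dense-core vesicle release, was 13.6 to 67.7 CPM against 0.0718 to 0.411. Nrsn1 had 0 counts in all controls and 3.02 to 31.7 CPM in kidney tumors, and its tumor mean was 1372-fold the floor of 3 counts. These genes were high in tumors of the kidney and the orbit as well as of the brain. The other genes of the 15 were Gpr143, Aloxe3, Slc27a6 (a fatty acid transporter gene) and Cyb5r2. Aloxe3, an epidermal lipoxygenase gene, was 4.72 to 14.3, 22.3 to 39.2 and 3.83 to 68.6 CPM in kidney, retro-orbital and brain tumors and 0.0138 to 0.0449 in controls. Slc27a6 was 13.7 to 93.8, 44.5 to 89.8 and 41.3 to 123 CPM in the same order and 0.314 to 0.342 in controls. Cyb5r2 was 3.97 to 18.9, 7.22 to 14.7 and 7.25 to 16.8 CPM, with at most 2 counts in any control.

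Of 18 genes named as MiT/TFE targets, 13 were higher members and 1, Met, was a lower member; under other scalings the first count was 12 or 13. The median log2 ratio to control over the 18 genes was 1.54 in kidney, 1.65 in retro-orbital and 1.66 in brain tumors, against 0.04, 0.02 and 0.03 over all genes tested. Besides Gpnmb and Trpm1 the higher members were Mcoln1, Ctsd, Sqstm1, Hif1a, Rragd, Rragc, Ppargc1a, Flcn, Uvrag, Fnip1 and Fnip2. Fnip2, a folliculin partner, was 339.5 to 731 CPM with a median of 542 in kidney tumors, 716, 669, 524 and 676 CPM in retro-orbital tumors, 880.1, 358 and 699 in brain tumors and 121, 100.4 and 115 in controls. Ppargc1a, a coactivator of mitochondrial genes, separated by little, with a lowest tumor of 348 and a highest control of 336 CPM. Met, the receptor for hepatocyte growth factor, went the other way. It was 240.1 to 369.9 CPM in tumors of the kidney, 28.5 to 63.5 in those of the orbit, 5.93 to 147 in those of the brain and 406 to 439 in controls.

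The nutrient-sensing genes of the lysosome surface held 10 higher members and 1 lower member (Nprl2) among 24 tested. Rragb, a Rag GTPase gene on the X chromosome, had the widest gap of them (ENSMUSG00000041658.12, chrX:153139981-153171943). Kidney tumors were at 137 to 345 CPM with a median of 207, retro-orbital tumors at 517, 522, 353 and 581 CPM and brain tumors at 583, 347 and 537 CPM. The controls were at 6.02, 6.86 and 7.03 CPM and the non-transformed kidneys at 6.44, 21.7, 9.87 and 11.3 CPM. The other higher members of the list were Rragc, Rragd, Flcn, Fnip1, Fnip2, Tsc1, Lamtor1, Lamtor3 and Slc38a9. Rragd lost its separation with RLE scaling, and the list then held 9 higher members.

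Lysosomal genes are given by part, and the parts were not tested against each other. Of 20 lysosomal membrane genes 11 were higher members and 0 lower. Of 18 V-ATPase subunits 5 were higher and 1 lower, and of 42 lysosomal hydrolases 7 were higher and 1 lower (8 and 2 under other scalings), while 34 were neither. The summed level of each of these lists was above all controls in every tumor, with hydrolases at 7633 to 15057 CPM in tumors of the kidney, 7754 to 9703 in those of the orbit, 5858 to 11369 in those of the brain and 4348 to 5243 in controls. The hydrolase genes that separated upwards were Gla, Ctsl, Ctsd, Ctsb, Hexa, Gaa and Dpp7. Gla, encoding alpha-galactosidase A, had a control level of 6.01, 6.35 and 5.52 CPM (ENSMUSG00000031266.6, chrX:134588149-134601125). It was 107 to 309 CPM with a median of 204 in kidney tumors, 265, 185, 205 and 253 CPM in retro-orbital tumors and 352, 118 and 268 CPM in brain tumors, and its lowest tumor was 16.9 times its highest control. Ctsl, a cysteine protease gene, was 953 to 2228 CPM with a median of 1610 in kidney tumors, 1417, 1034, 1242 and 1560 CPM and 1703, 921 and 1507 CPM in retro-orbital and brain tumors and 155, 197 and 169.7 in controls. Ctsd, an aspartic protease gene, was 719 ± 263, 560.3 ± 116 and 547 ± 156 CPM by site (SD) and 100.3 ± 2.97 in controls. Mcoln1, the lysosomal calcium channel gene, was 196 ± 58.9, 202 ± 38.4 and 156 ± 23.6 CPM by site and 71.1 ± 11.7 in controls. Within the pump, Atp6v0a1, Atp6v0c, Atp6v0d1, Atp6v1c1 and Atp6v1g1 were higher. The lower subunit, Atp6v0d2, is a form found in collecting duct and bone. Of 29 autophagy genes 8 were higher and 2 lower, among them Optn, a cargo receptor gene, at 122 to 408 CPM in kidney tumors and 15.8 to 18.6 in controls.

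**Figure D3:**
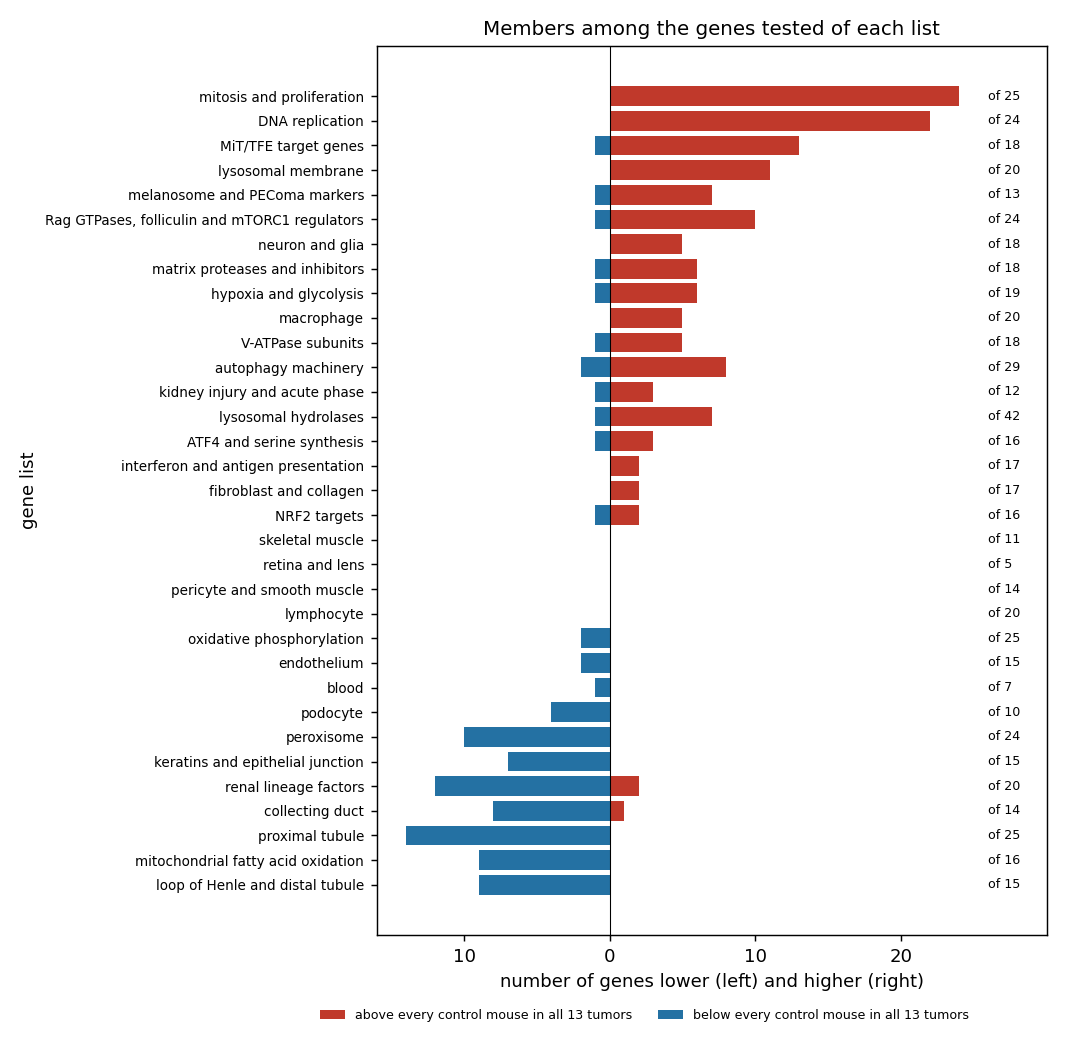
Number of genes in each of 33 lists that were higher members (bars to the right) or lower members (bars to the left), with the number tested at the right edge. Mitosis (24 of 25) and DNA replication (22 of 24) have the longest bars on the higher side, and proximal tubule (14 of 25), renal lineage (12 of 20) and peroxisome (10 of 24) on the lower side; over all genes tested 9.89% were higher and 9.43% lower members.

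The promoters of these genes were read for the sequences that MiT/TFE factors are known to bind. The windows run from 250 bases before to 50 after the annotated transcription start (RefSeq, build GRCm38.p6), and 1635 genes among the higher members had at least 1 window. The E-box core CACGTG was found in 12.1% of 2116 windows of higher members, in 9.4% of 1999 windows of lower members, in 8.81% of 17779 windows of all genes tested and in 7.15% of all 32851 windows. GTCACGTG, the core of the lysosomal CLEAR element on either strand, which contains CACGTG, was found in 5.58%, 2.9%, 3.38% and 2.25% in the same order. TCATGTG, a variant of the melanocyte M-box on either strand, was found in 3.92%, 2.35%, 2.58% and 3.77%. The lists hold few windows each and were not tested against each other. Among their higher members CACGTG was found in 5 of 6 windows of hydrolase genes, 6 of 14 of MiT/TFE target genes, 1 of 5 of V-ATPase genes, 0 of 7 of autophagy genes, 1 of 20 of mitosis genes and 2 of 19 of DNA replication genes. A match in these windows is a description and does not show binding. The following windows belong to members with the values above, 5′ to 3′ along the transcript, with every match in capitals.
Rragb (chrX:153139708-153140007, plus strand): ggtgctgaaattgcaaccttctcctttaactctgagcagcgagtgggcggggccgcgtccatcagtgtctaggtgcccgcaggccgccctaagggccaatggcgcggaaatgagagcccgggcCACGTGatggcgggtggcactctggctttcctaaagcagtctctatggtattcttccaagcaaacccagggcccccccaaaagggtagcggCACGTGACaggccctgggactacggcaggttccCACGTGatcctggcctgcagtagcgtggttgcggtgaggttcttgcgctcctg
Gla (chrX:134600956-134601255, minus strand): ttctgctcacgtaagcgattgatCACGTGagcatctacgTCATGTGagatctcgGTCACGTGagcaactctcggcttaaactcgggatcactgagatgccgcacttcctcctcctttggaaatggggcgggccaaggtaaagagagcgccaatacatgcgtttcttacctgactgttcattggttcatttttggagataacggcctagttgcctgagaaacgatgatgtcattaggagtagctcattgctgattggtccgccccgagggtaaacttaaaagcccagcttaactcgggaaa
Mcoln1 (chr8:3500269-3500568, plus strand): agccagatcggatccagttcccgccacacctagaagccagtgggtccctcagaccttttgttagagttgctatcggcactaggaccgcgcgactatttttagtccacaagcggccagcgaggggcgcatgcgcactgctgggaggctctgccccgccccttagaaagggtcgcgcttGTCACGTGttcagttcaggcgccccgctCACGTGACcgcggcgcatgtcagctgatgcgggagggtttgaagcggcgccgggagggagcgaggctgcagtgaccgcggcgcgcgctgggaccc
Ctsd (chr7:142387778-142388077, minus strand): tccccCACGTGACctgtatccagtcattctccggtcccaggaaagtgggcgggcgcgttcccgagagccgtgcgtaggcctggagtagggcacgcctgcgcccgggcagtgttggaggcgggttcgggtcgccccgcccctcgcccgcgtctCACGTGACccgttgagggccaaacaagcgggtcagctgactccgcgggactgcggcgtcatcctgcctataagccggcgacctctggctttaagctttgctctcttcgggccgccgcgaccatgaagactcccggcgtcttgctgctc
Trpm1 (chr7:64153585-64153884, plus strand): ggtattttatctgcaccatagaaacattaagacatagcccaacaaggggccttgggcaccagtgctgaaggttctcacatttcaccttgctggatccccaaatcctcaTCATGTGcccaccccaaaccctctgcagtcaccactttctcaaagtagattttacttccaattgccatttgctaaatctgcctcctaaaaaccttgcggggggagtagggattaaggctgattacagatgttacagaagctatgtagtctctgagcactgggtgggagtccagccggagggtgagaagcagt
The Rragb window held CACGTG at 3 places, 1 of them within GTCACGTG on either strand. The Gla window held it at 2 places, 1 of them within GTCACGTG, and TCATGTG at 1 place. In the Mcoln1 and Ctsd windows both copies of CACGTG lay within GTCACGTG. The window at the first Trpm1 start held TCATGTG, and that at its second start, not shown, held CACGTG at 1 place. The windows of Gpnmb and Hk2, the genes with the widest gaps, held none of these sequences.

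Pigment cell genes were mixed. Of 13 melanosome and PEComa markers tested 7 were higher members (Gpnmb, Trpm1, Gpr143, Pmel, Tyrp1, Oca2 and Mlana) and 1, Mitf, was a lower member. Ctsk, the cathepsin K gene, was neither, and so were Dct, Slc45a2, Rab38 and Sox10. Pmel, the melanosome fibril protein gene, varied widely between tumors. It was 3.21 to 285 CPM with a median of 48.9 in kidney tumors, 875, 1151, 468 and 934 CPM in retro-orbital tumors, 555, 84.8 and 356 CPM in brain tumors and 0.572, 0.368 and 0.49 in controls. Gpr143, a melanosome receptor gene, was 15.8 to 118 CPM with a median of 67.8 in kidney tumors, 44.3, 66.1, 41.1 and 45.7 CPM in retro-orbital and 66.8, 48.5 and 127 CPM in brain tumors, and at most 0.323 CPM in controls. Oca2 was 0.0657 to 0.913 CPM in kidney tumors but 2.32, 68.5, 21.7 and 6.1 in retro-orbital tumors. Tyrp1, a melanin synthesis gene, was 0.39 to 23 CPM in tumors of the kidney, 4.24 to 11.9 in retro-orbital and 2.98 to 41.9 in brain tumors. Mlana stayed at or under 0.73 CPM in every tumor. Mitf, the family member that governs melanocytes, was 13 to 24.6 CPM in tumors of the kidney, 10.4 to 16 in those of the orbit, 8.54 to 19.7 in those of the brain and 32.1 to 43.4 in controls.

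Cell division genes separated almost as a block. Of 25 mitosis genes 24 were higher members and 0 lower, and of 24 DNA replication genes 22 were higher (21 with RLE or upper quartile scaling) and 0 lower. Cdk1, the mitotic kinase gene, was 14.2 to 22 CPM with a median of 18.7 in kidney tumors, 37.6, 22.7, 29.9 and 40.6 CPM in retro-orbital tumors, 57.6, 21.7 and 32.2 CPM in brain tumors and 1.52, 1.37 and 1.45 in controls. Mki67, the proliferation marker, was 275 ± 50.5 CPM in kidney tumors (SD, n = 6), 618 ± 128 in retro-orbital tumors (n = 4), 641 ± 572 in brain tumors (n = 3) and 41 ± 9.64 in controls (n = 3). Rrm2, a subunit of ribonucleotide reductase, was 23.5 to 57.3 CPM in kidney tumors and 5.48 to 7.73 in controls. Pcna was a higher member by a margin that RLE and upper quartile scaling removed. In the non-transformed kidneys the summed mitosis level was 68.2 to 132 CPM against 101 to 142 in controls and 659.7 to 995 in kidney tumors. Their summed DNA replication level was 198 to 301 CPM against 252 to 260.4 in controls and 519 to 999 in kidney tumors, and the non-transformed kidney of mouse 3, at 301 CPM, lay above all controls.

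Metabolic and stress genes gave shorter lists. Beside them, 9.89% of all genes tested were higher and 9.43% lower members, and nothing is read from counts near these shares. Among 19 hypoxia and glycolysis genes 6 were higher members (Hk2, Hif1a, Pfkp, Slc16a3, Aldoa and Pkm) and 1 was lower (Ndrg1). Slc16a3, a lactate exporter gene, was 6.35 to 55.7 CPM in tumors of the kidney, 6.93 to 33.9 in those of the orbit, 3.06 to 44.7 in those of the brain and 0.144 to 0.297 in controls. Of 16 NRF2 targets 2 were higher and 1 lower. Hmox1, which breaks down heme, was 310.1 ± 108, 379.9 ± 49.8 and 281 ± 92.1 CPM by site (SD) and 32.3 ± 11.4 in controls. Slc7a11, the cystine transporter gene, was 11.4 to 195 CPM in kidney tumors and 0.286 to 0.426 in controls. Osgin1, by contrast, was a lower member. Among 16 ATF4 and serine synthesis genes Ddit3, Slc7a11 and Asns were higher and Shmt2 lower. Timp1, a metalloprotease inhibitor gene that was higher together with 5 of the other 17 genes of the matrix protease list while Timp3 was lower, was 10.1 to 47.7 CPM with a median of 26.9 in kidney tumors, 28.1, 41.5, 60 and 36.7 CPM in retro-orbital tumors, 14.3, 24 and 54.1 in brain tumors and 0.388, 0.404 and 0.404 in controls. Aqp3, a water and glycerol channel gene of the collecting duct, was a higher member in a list where 8 of 14 genes were lower. It was 175 to 472, 277 to 427 and 266 to 522 CPM by site and 27 to 31.1 in controls.

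Markers of other cells were also examined, beside the 9.89% of all genes tested that were higher and 9.43% that were lower members. Nothing is read from counts near these shares. Of 20 macrophage genes 5 were higher members (Cd68, Trem2, C1qc, Lgals3 and Lyz2; 8 with upper quartile scaling). Of the defining genes of the list, Adgre1, Csf1r, C1qa and C1qb were not members. Cd68 was 34.3 to 164 CPM with a median of 102 in kidney tumors, 73.8, 50.3, 103 and 53.7 CPM in retro-orbital tumors, 78.6, 64.6 and 388 CPM in brain tumors and 6.17, 7.62 and 7.21 in controls. Cd68 is also a lysosomal membrane protein gene and is on both lists. The summed macrophage level was 695 to 1973 CPM in tumors of the kidney, 1028 to 1649 in those of the orbit, 793 to 2076 in brain tumors and 289 to 341 in controls, and its part in the members was not tested. Of 18 neuron and glia genes Map2, Nefm, Nefl, Snap25 and Mbp were higher members, and the brain tumor of mouse 2 held 2836 CPM of the list against 309 and 544 in the other brain tumors, 82.5 to 340.0 in kidney tumors and 43.9 to 60.9 in controls. Of 17 fibroblast genes Sparc and Thy1 were higher. The summed level of that list was nevertheless above all controls in every tumor. It was 2064 to 4969 CPM in kidney, 4789 to 9170 in retro-orbital and 1144 to 3227 in brain tumors, against 681 to 1128 in controls. Of 17 interferon and antigen presentation genes B2m and H2-D1 were higher. Of 12 kidney injury genes Timp1, Hmox1 and Vcam1 were higher and Havcr1 lower. Of 15 endothelial genes Tek and Ehd3 were lower, and of 7 blood genes Slc4a1. None of the lymphocyte, pericyte, skeletal muscle and eye markers was a member.

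Among the lower members G6pc, the phosphatase that ends gluconeogenesis in the proximal tubule, had the widest gap (ENSMUSG00000078650.2, chr11:101367561-101377903). Controls held 465, 578 and 479.5 CPM. Kidney tumors held 3.49 to 137 CPM with a median of 27.3, the higher end being the units of mice 4 and 5, at 137 and 94.4 CPM. Retro-orbital tumors were at 1.38, 0.278, 18.5 and 1.53 CPM and brain tumors at 1.75, 5.64 and 2.31 CPM. The retro-orbital tumor of mouse 5 was the highest of its site, and the lowest control was 3.39 times the highest tumor of any site. Acsm1, a medium-chain acyl-CoA synthetase gene, followed at 291, 289 and 296 CPM in controls, 1.55 to 97.2 CPM with a median of 10.2 in kidney tumors, 0.681, 0.253, 18.3 and 0.824 CPM in retro-orbital tumors and 0.355, 2.45 and 0.872 CPM in brain tumors. Osgin1 was 63.9, 77 and 58 CPM in controls, 5.94 to 20.5 CPM with a median of 8.99 in kidney tumors, 2.8, 3.32, 4.54 and 3.81 CPM in retro-orbital tumors and 0.449, 0.774 and 0.587 CPM in brain tumors, in steps from site to site. Slc2a5, the fructose transporter gene, was 92.8 to 114 CPM in controls and 2.49 to 39, 0.287 to 4.17 and 0.337 to 3.31 by site. Prlr, the prolactin receptor gene, was 178 to 241 CPM in controls and 1.5 to 69.1, 1.19 to 9.21 and 1.07 to 12.7 by site. Other lower members with wide gaps were Pik3c2g, Flvcr2, Rhobtb1, Perm1, Tstd1, Lrrc66, Ttpa, Cyp2c23 and Scn4b.

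**Figure D4:**
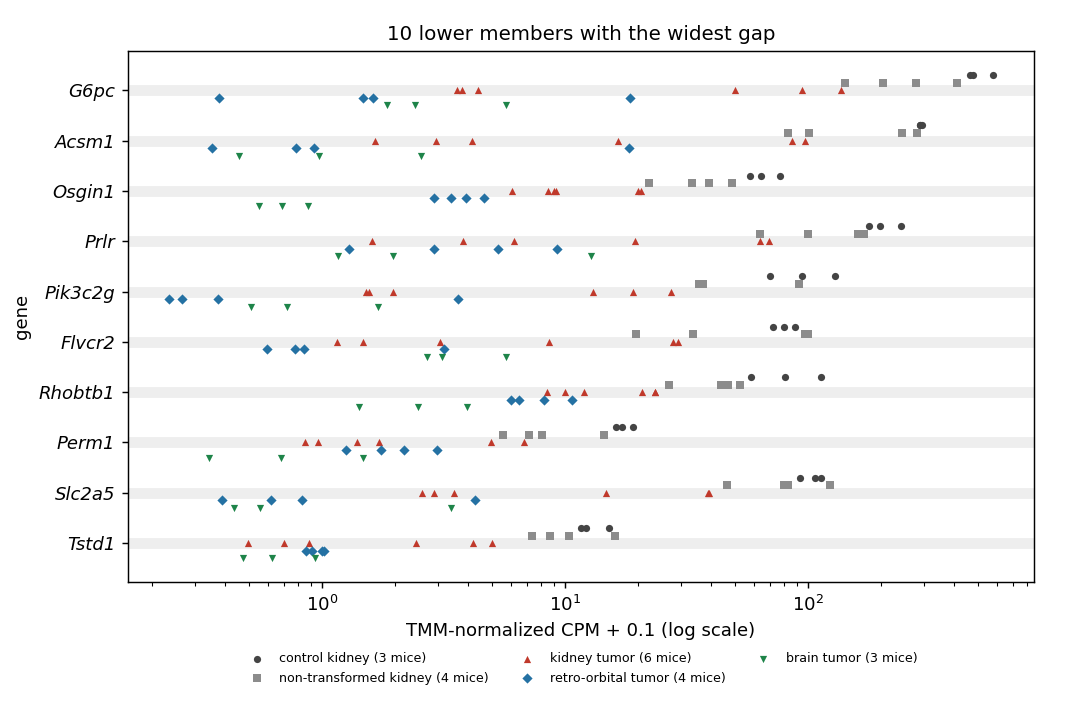
TMM-normalized CPM plus 0.1 on a log scale (x axis) of the 10 lower members with the widest gap (y axis), 1 point per animal and tissue. Control points lie to the right of all tumor points; kidney tumors reach closest to them, as for G6pc at 137 CPM against a lowest control of 465 CPM.

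Tubule genes were lower members more often than not, and many were neither. Of 25 proximal tubule genes 14 were lower members, 0 higher and 11 neither. Of the loop and distal tubule list 9 of 15 were lower and 6 neither, of the collecting duct list 8 of 14 were lower, 5 neither and 1, Aqp3, higher, and of the podocyte list 4 of 10 were lower and 6 neither. Lrp2, the endocytic receptor megalin, was 6438, 6445 and 6294 CPM in controls and 547 to 4720 CPM with a median of 957 in kidney tumors. It was 63.6, 156, 669 and 94.5 CPM in retro-orbital and 224, 227 and 679.9 CPM in brain tumors. Slc34a1, the phosphate transporter gene, was 835, 1244 and 1197 CPM in controls, 6.21 to 717 CPM with a median of 129.9 in kidney tumors, 3.39, 1.33, 89.2 and 7.32 CPM in retro-orbital and 4.84, 14.8 and 6.57 CPM in brain tumors. Neither gene was at 0 in any tumor. Umod, Slc12a1 and Aqp2 were not members, since the kidney tumor of mouse 5 overlapped the controls.

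Transcription factors of the renal lineage held 12 lower and 2 higher members of 20, and Wt1, Hnf4a, Lhx1, Tfcp2l1, Pax8, Sall1, Irx3, Pou3f3, Foxi1 and Maf were among the lower ones. Pax8, needed for nephron formation, was 64.1, 66.2 and 62.2 CPM in controls and 29.3 to 53.4 CPM with a median of 40.8 in kidney tumors. It was 0.33, 0.203, 3.28 and 0.323 CPM in retro-orbital tumors, where the highest value was that of mouse 5, and 0.252, 0.968 and 0.758 CPM in brain tumors. Hnf4a, a proximal tubule regulator, was 255, 360.4 and 311 CPM in controls, 10.7 to 188 CPM with a median of 50.3 in kidney tumors, 0.784, 0.481, 14.8 and 0.808 CPM in retro-orbital tumors and 1.14, 2.67 and 1.32 CPM in brain tumors. Eya1, a gene of nephron progenitors, was a higher member. It was 3 to 311 CPM in tumors of the kidney, 1.9 to 8.46 in those of the orbit, 637, 225 and 20.7 in those of the brain and 1.38 to 1.57 in controls. Cdh16, the kidney cadherin, was 1 of 7 lower members among 15 keratin and junction genes, at 440.3, 502 and 433 CPM in controls, 124 to 370.1 in tumors of the kidney, 0.591 to 34.1 in those of the orbit and 1.67 to 5.61 in brain tumors.

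Of 16 genes of mitochondrial fatty acid oxidation 9 were lower members and 0 higher (7 to 9 under other scalings), and of 24 peroxisome genes 10 were lower and 0 higher (12 or 13 under other scalings). Ppara, the receptor that controls fatty acid oxidation, was 75, 94.3 and 66.2 CPM in controls, 15.3 to 37.3 CPM with a median of 18.1 in kidney tumors, 5.53, 10, 7.91 and 7.6 CPM in retro-orbital tumors and 4.65, 9.18 and 6.34 CPM in brain tumors. Cat, encoding catalase, was 638, 681 and 622 CPM in controls and 267 to 569.6 CPM with a median of 495 in kidney tumors. It was 70.2, 52.9, 103 and 69.2 CPM in retro-orbital and 118, 47.4 and 66 CPM in brain tumors. Of 25 genes of oxidative phosphorylation 2 were lower members (Sdha and Uqcrc2) and 23 were neither, and the list's median log2 ratio was -0.08, -0.38 and -0.07 by site.

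By class, 87.3% of higher and 78.3% of lower members were protein-coding, against 70.7% of the genes tested. The X chromosome held 4.45% of higher and 2.22% of lower members, against 3.85% of the genes tested. The higher members included 57 of 252 miRNA genes tested, and 42 of these lay within another higher member on the same strand, 36 of them within Sfmbt2. Sfmbt2, a Polycomb-related gene chosen after its values were seen, was itself a higher member. It was 6.99 to 16.4 CPM with a median of 10.1 in kidney tumors, 39.6, 59.2, 20.7 and 30.6 CPM in retro-orbital tumors, 40.6, 36.1 and 48.5 CPM in brain tumors and 0.568, 0.776 and 0.795 in controls. The miRNA genes there are near-identical copies, so their counts are uncertain and are not counted as separate findings.

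Levels of the members were also compared between sites, on the same tumor values that the rule used. The rule treated the 13 tumor units alike, but it kept only genes with every tumor on 1 side of control, and kidney tumors were most often the nearest. The share of members called and their direction are thus partly set by the rule, the shares of all genes beside them come from genes not chosen this way, and nothing is read from the difference. The comparison was made in a single edgeR fit over the 13 tumor units, in which 2400 higher and 2046 lower members passed the filter. Between retro-orbital and kidney tumors 918 members were called, against a background of 11.1% of all genes. Of the higher members 437 were higher in retro-orbital tumors (18.2%, against 4.76% of all genes) and 14 lower, and of the lower members 0 were higher and 467 lower (22.8%, against 6.38% of all genes). Between brain and kidney tumors 1176 were called, against a background of 17.8%, and these were 680 higher members that were higher in brain tumors (28.3%, against 9.93% of all genes), 16 that were lower, and 480 lower members that were lower (23.5%, against 7.86% of all genes). Between brain and retro-orbital tumors 194 were called, or 5.08% of higher and 3.52% of lower members, beside a background of 6.65%. In the members' own direction 87 higher members were higher in brain tumors (3.62%, against 3.59% of all genes) and 52 lower members were lower (2.54%, against 3.06%). Apart from the 14 and 16 exceptions, members called between kidney tumors and another site were farther from control at that site, a direction that the rule partly fixes. The proximal tubule level also differed between sites: it reached at most 2025 CPM in retro-orbital tumors and ran over 429 to 907 in brain tumors and 1090 to 18344 in kidney tumors. Other cell markers differed as well. In kidney, retro-orbital and brain tumors the pericyte list summed to 480 to 1079, 1271 to 1818 and 259 to 439 CPM. The endothelial list summed to 617 to 1146, 1385 to 2175 and 422 to 1602 CPM. The part of these cells in the calls was not tested. Since tumors of different sites shared mice, the fit was repeated with the mouse as a block. The paired fit called 474 members between retro-orbital and kidney tumors (background 5.24%), 155 higher and 217 lower members between brain and kidney tumors (4.08%) and 0 between brain and retro-orbital tumors (0.0133%). In that last comparison 316 higher (13.2%) and 283 lower members (13.8%) had an unadjusted p under 0.05, beside 18.4% of all genes. DESeq2 without the block called 465 there, or 10.6% of the members tested against 15.9% of all genes. Without the kidney tumors of mice 4 and 5 the counts were 565, 807 and 186, and without the retro-orbital tumor of mouse 5 they were 905, 1102 and 95. Leaving out a mouse moved the first count from 918 to 437, 186 and 241 (mice 2, 3 and 6), the second from 1176 to 687 and 612 (mice 1 and 2) and the third from 194 to 352, 8, 34, 96 and 44 (mice 1, 2, 3, 5 and 6). Calls over all genes moved with them, to 4.72%, 1.92% and 2.72% of genes in the first comparison, to 12.1% and 6.1% in the second and to 10.6%, 0.5%, 1.47%, 2.93% and 2.02% in the third.

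Single genes are given here and in the next paragraph from the fit without the block, mostly members with the smallest p in it. They were picked by that p, on tumor values that the rule also used. Their p-values and lack of overlap therefore describe these tumors and are no independent support. A paired p is given for Nos1 alone. Usp35, a deubiquitinase gene, was 0.802 to 2.47 CPM with a median of 1.88 in kidney tumors, 8.67, 17.5, 12.3 and 10.5 CPM in retro-orbital tumors and 14.2, 9.48 and 16.7 CPM in brain tumors. Kidney tumors overlapped neither other site, and the log2 difference from kidney tumors was 2.73 ± 0.31 (SE) in retro-orbital tumors with an edgeR adjusted p of 0.0015 and 2.95 ± 0.32 in brain tumors with an edgeR adjusted p of 0.000811. P4ha3, a collagen prolyl hydroxylase gene, was 0.67 to 2.72 CPM in kidney tumors, 15.8, 38.5, 18.1 and 24.5 in retro-orbital tumors and 4.53, 4.79 and 4.56 in brain tumors, 3.70 ± 0.43 higher on the log2 scale in retro-orbital than in kidney tumors with an edgeR adjusted p of 0.0015. Klc1, a kinesin light chain gene, was 97.2 to 132 CPM in kidney tumors, 228, 233, 216 and 204 in retro-orbital tumors and 306, 300.1 and 356 in brain tumors. Its log2 difference between brain and kidney tumors was 1.53 ± 0.13 with an edgeR adjusted p of 0.000266. Nos1, the neuronal nitric oxide synthase gene, was highest in the orbit, at 862, 1562, 643 and 753 CPM, with 25.9 to 268 in kidney tumors and 9.59, 22.5 and 14.7 in brain tumors. It was lower in brain than in retro-orbital tumors by a log2 difference of -5.84 ± 0.90, with an edgeR adjusted p of 0.00623 that was lost in the paired fit (0.0958).

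Of the lower members, Hoxd8, a patterning gene of the trunk, was 61.3, 69.6 and 70.9 CPM in controls, 13.8 to 41.3 CPM with a median of 21.4 in kidney tumors, 3.94, 3.46, 5.4 and 3.06 CPM in retro-orbital tumors and 0.355, 0.694 and 0.436 CPM in brain tumors. The 3 sites did not overlap. In the fit without the block, which takes no account of shared mice, its log2 difference was -2.73 ± 0.37 between retro-orbital and kidney tumors (edgeR adjusted p 0.00213). Between brain and kidney tumors it was -5.64 ± 0.50 (edgeR adjusted p 0.0003). Sqor, a mitochondrial sulfide oxidase gene, was 59.2 to 110.0 CPM in kidney tumors, 33.9, 22.1, 30.3 and 31.6 in retro-orbital tumors and 7.02, 9.5 and 9.6 in brain tumors, again without overlap, with a log2 difference of -3.22 ± 0.24 between brain and kidney tumors (edgeR adjusted p 0.000266). Nox4, an oxidase gene abundant in proximal tubule, was 1582, 1754 and 1488 CPM in controls, 250.1 to 993 in kidney tumors, 137, 96.6, 196 and 92.5 in retro-orbital tumors and 22.4, 39.6 and 24.9 in brain tumors. Cat differed by -2.70 ± 0.31 on the log2 scale between retro-orbital and kidney tumors, with an edgeR adjusted p of 0.0015. Gpnmb and Hk2 did not pass the test between sites, with log2 differences of -0.36 ± 0.26 and -0.39 ± 0.36 (edgeR adjusted p 0.405 and 0.515) between retro-orbital and kidney tumors and -0.52 ± 0.29 and -0.51 ± 0.40 (edgeR adjusted p 0.236 and 0.404) between brain and kidney tumors.

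The fetal Pax8-Cre kidneys share no sample with the tumors and allow a test of the members in another model of the fusion. These dysmorphic kidneys held far more skeletal muscle RNA than the controls: the 12 genes of that list summed to 43118 to 113913 CPM in dysmorphic and 16552 to 19793 in control fetal kidneys, 10 of the 11 muscle genes that the adult comparison tested were called higher by edgeR, and neither Acta1 nor Ckm was at 0 in any fetus. Of 17 fibroblast genes 10 were also called higher. The part of this tissue in the results below was not tested. In the edgeR fit 101 of 2307 higher members tested were called higher in dysmorphic kidneys (4.38%, against a background of 2.4% of all genes) and 1 was called lower. Of 2034 lower members tested 24 were called lower (1.18%, background 0.269%) and 14 were called higher. The background moved with the setting. Without dysmorphic fetus 2 the counts were 177 (7.74%, against 4.54% of all genes) and 76 (3.77%, against 1.04%). Without dysmorphic fetus 5 they were 150 (6.55%, against 3.61%) and 144 (7.13%, against 1.51%). With any of the other 6 fetuses left out edgeR called 0 members and 0 genes in all. In those 6 fits 335 to 453 higher members were higher at an unadjusted p under 0.05 (14.4% to 19.5%, against 8.98% to 11.4% of all genes), and 318 to 459 lower members were lower (15.4% to 22.1%, against 4.72% to 8.26%). With sex in the model edgeR called 1 and 0 members, and 5 genes in all. In that fit 480 higher members were higher and 526 lower members were lower at an unadjusted p under 0.05 (20.8% and 25.9%, against 12.4% and 8.18% of all genes). DESeq2 without sex called 356 (15.8%, against 9.23% of all genes) and 233 (11.8%, against 3.14%). The fetuses carry 2 title prefixes, with 3 dysmorphic and 2 control fetuses under the first and 2 dysmorphic and 1 control under the second, and what a prefix stands for is not given. With the prefix as a covariate edgeR called 68 (2.95%, against 1.48% of all genes) and 25 (1.23%, against 0.326%).

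The 5 higher members with the smallest p were Tmod1, Tgfb2, Pthlh, Adssl1 and Kdelr3. Tmod1, an actin-capping gene of muscle and red blood cells, was 73.2, 42.9, 78.6, 92.3 and 61.1 CPM in dysmorphic and 13.2, 15.3 and 17 CPM in control fetal kidneys, a log2 difference of 2.20 ± 0.26 (SE, edgeR adjusted p 0.035). Adssl1, the muscle form of adenylosuccinate synthase, was 44.2, 29.2, 39.9, 56.2 and 32.1 CPM against 12.8, 9.3 and 7.87 CPM. Tgfb2, a growth factor gene, was 36.4, 46.8, 46.6, 36.1 and 34.3 CPM in dysmorphic and 13.3, 11.8 and 17.2 CPM in control kidneys, with a log2 difference of 1.51 ± 0.19 (edgeR adjusted p 0.035). Pthlh, encoding parathyroid hormone-related protein, rose by 2.37 ± 0.32 on the log2 scale, from 0.773, 0.84 and 0.702 CPM to 3.59, 6.23, 4.09, 3.36 and 2.76 CPM (edgeR adjusted p 0.035). The groups did not overlap for any of these 4 genes. In the tumors Pthlh was 1.19 to 3.88 CPM in kidney, 3.31 to 14.1 in retro-orbital and 5.92 to 6.62 in brain tumors against 0.18 to 0.271 in controls, and Tgfb2 was 20.4 to 104, 89.8 to 193 and 131 to 280.3 against 2.97 to 4.76. Among the lower members, Slc47a1, an organic cation exporter gene of the tubule, was 3.03, 3.84, 5.2, 3.01 and 7.14 CPM in dysmorphic and 37.1, 24.7 and 11 CPM in control fetal kidneys (log2 difference -2.45 ± 0.43, edgeR adjusted p 0.0364). Lrba was 232, 297, 254, 262 and 266 CPM against 582, 489 and 433 CPM, Zfp518a was 103 to 109 against 151 to 172, and Adgrf1 was 0.367 to 0.84 against 2.53 to 7.56.

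**Figure D5:**
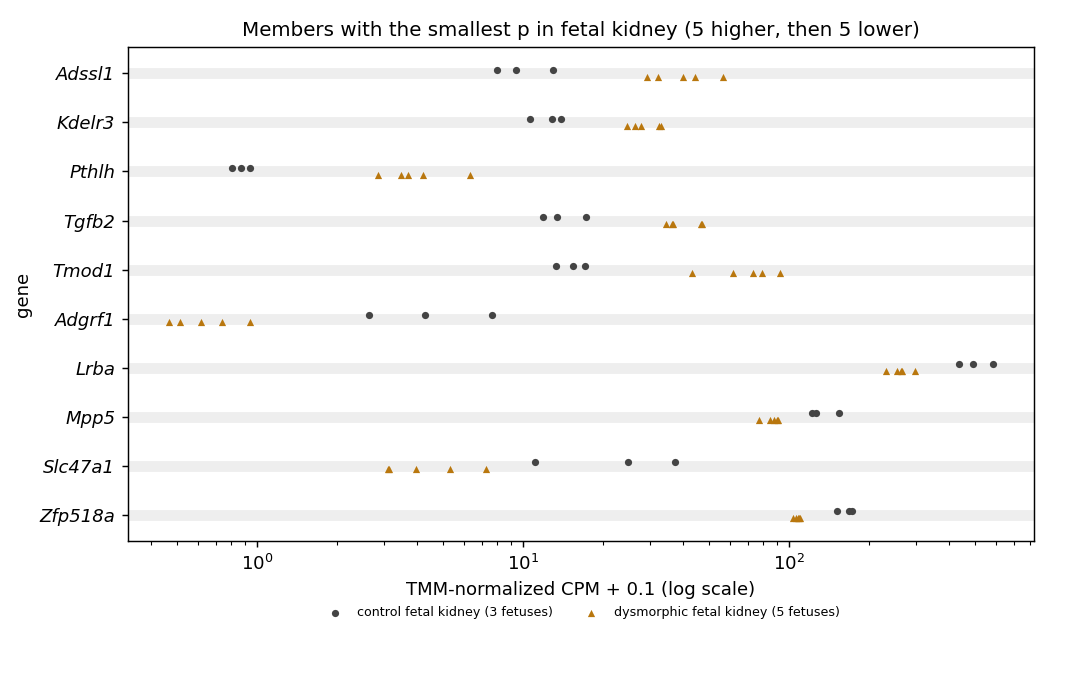
TMM-normalized CPM plus 0.1 on a log scale (x axis) in 5 dysmorphic and 3 control fetal kidneys for the 5 higher members (upper rows) and 5 lower members (lower rows) with the smallest p (y axis), 1 point per fetus. The groups do not overlap in any row; Tmod1 is 42.9 to 92.3 CPM in dysmorphic and 13.2 to 17 CPM in control kidneys.

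Of the 15 higher members with the widest gap Adam33 alone was called in the fetus, at 2.05 ± 0.36 on the log2 scale (edgeR adjusted p 0.0367). Gpnmb was 177, 595, 41.2, 16 and 70.8 CPM in dysmorphic and 6.37, 6.96 and 0.486 CPM in control fetal kidneys. Its groups did not overlap, and the log2 difference was 5.29 ± 1.54 with an edgeR adjusted p of 0.11. Hk2 was 105, 251, 58.9, 67.5 and 73.7 CPM against 23.7, 22.4 and 26.7 CPM, also without overlap (2.20 ± 0.52, edgeR adjusted p 0.0662). Of 13 melanosome and PEComa markers tested there 4 were called higher, and of 18 MiT/TFE targets 1, beside 2.4% of all genes, and like every other fetal call these were lost with any of 6 fetuses left out. Pmel passed, at 34.8, 111, 11, 18.2 and 21 CPM against 1.81, 1.22 and 0.684 CPM (4.98 ± 0.95, edgeR adjusted p 0.0402). Of the 15 lower members with the widest gap G6pc was called lower (-2.86 ± 0.57, edgeR adjusted p 0.0441), at 0.299 to 1.06 CPM in dysmorphic and 1.29 to 7.03 in control kidneys. Perm1, a regulator of muscle mitochondria, was called higher instead (2.16 ± 0.36, edgeR adjusted p 0.035), at 14.1 to 37.8 CPM against 6.09 to 6.67. None of the 24 mitosis members was called in the fetus by edgeR, a count that the background of 2.4% higher and 0.269% lower does not set apart from all genes. The list summed to 3937 to 5026 CPM in dysmorphic and 4694 to 4927 in control kidneys.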

How the data were processed

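Total RNA from formalin-fixed mouse tissue was sequenced from stranded libraries without removal of ribosomal RNA. The authors deposited raw counts per gene, not normalized, of 80205573 to 121415057 counts in total per library. The submitters' processing notes name FastQC, MultiQC, Bowtie2 and STAR 2.5.2a and builds GRCm38 and mm10, with no roles. The counter and annotation were not given in the sources used here. Of the counts from 1 to 20, 79.04% to 84.33% were even in each library, so halved counts were tried too, and the reason was not tested. Coordinates and classes are from GENCODE M21 (GRCm38), which matched 53274 of 53379 gene IDs. Genes sharing a symbol (159) were kept apart by ID.

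Libraries of the same animal and group were summed. Levels are TMM-normalized CPM, and genes were kept with filterByExpr. Tests used edgeR 4.0.16 (R 4.3.3, quasi-likelihood, Benjamini-Hochberg adjusted p under 0.05), fitted on all genes that passed the filter: tumor sites in a single fit of 13 units, fetal groups in another. DESeq2 1.42.0, other scalings, other filters, sex, title prefix and mouse terms and fits without each animal were alternatives. Tissues of the same mouse pair the samples. Deviations from the site mean correlated across genes at 0.23 to 0.313 in the 4 same-mouse pairs of kidney and retro-orbital tumors, -0.0852 to -0.0575 in the 4 with a brain tumor and -0.423 to 0.411 in 46 other pairs. The code was tested on simulated data. Fetal titles carry 2 prefixes of unstated meaning, and nothing in the labels says that fetuses came from separate litters, so p-values measure the spread between these animals. The floor of 3 counts takes in sampling of reads alone, since reads carry no molecular identifiers. It takes each count as 1 independent read. With most small counts even, that may not hold, and the folds set against the floor would then be too large.

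Named genes are the 15 members in each direction with the widest gap at a mean of 10 CPM or more (predicted models left out), members on the gene lists, the genes nearest the rule's edge and the 5 members in each direction with the smallest p in the fetal and site tests, of which the fetal test alone uses other samples than the rule. Members and lists were chosen with earlier results of these data known. No other columns of per-sample values were used. Values of some genes are not reported here.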

Additional observations from a re-analysis of the deposited data

Results flagged for a closer look

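Differences between tumor sites were met in a test over the tumor values that the membership rule also used, so the shares of members called are partly set by that rule and are not comparable with those of all genes. In it 918 members were called between retro-orbital and kidney tumors, 1176 between brain and kidney tumors and 194 between brain and retro-orbital tumors, where 11.1%, 17.8% and 6.65% of all genes were called. The last count was 5.08% of higher and 3.52% of lower members. In the fit paired by mouse the counts were 474, then 155 higher and 217 lower members, and 0.

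A sample far from the rest of its group, by Dixon's 95% limit on the log2 scale, was found for 17 of 276 gene and group pairs whose values are given, where chance gives about 1 in 20. The retro-orbital tumor of mouse 5 was farthest for 4 genes: Hnf4a at 14.8 CPM (next 0.808), Pax8 at 3.28 (next 0.33), Slc47a1 at 22.2 (next 2.8) and, on the low side, Adssl1 at 25 (next 50.9). That of mouse 2 was high for Slc16a3, at 33.9 CPM (next 8.62). Among kidney tumors that of mouse 5 was low for Cd68, at 34.3 CPM (next 92), and that of mouse 1 for Cat, at 267 CPM (next 454). Among non-transformed kidneys that of mouse 5 was low for Hnf4a at 229 CPM (next 267) and Sqor at 128 (next 173), and high for P4ha3 at 1.34 (next 0.157) and Pthlh at 2.17 (next 0.252). That of mouse 3 was high for Ret, at 10.2 CPM (next 2.43), and that of mouse 4 for Mlana at 0.0666 and Mir211 at 0.00833, the others being at 0. Among dysmorphic fetal kidneys that of fetus 2 was low for Tyrp1 at 2.97 CPM (next 6.25) and Oca2 at 0.107 (next 0.307), and that of fetus 5 was high for Nox4, at 95.5 CPM (next 38.3).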

How the results depend on the processing

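The number of higher members stayed within 1.5 times of 2407 under every scaling, filter and left-out animal tried, and fell to 1258 with a required gap of 1.5-fold. The number of lower members (2294) fell to 460 with that gap and to 881 with every library as its own unit, and rose to 3618 in female mice only. Leaving out 1 animal at a time gave 2491 to 3207 higher and 2373 to 3263 lower members. It gave 660 to 2690 members called at all 3 sites, for which no share of all genes was taken. The rule orders every unit, so fewer units tend to give more members and more units fewer. The counts without animals, in female mice and with single libraries are thus partly set by the number of units. Neither stability nor an effect of sex or of a mouse is read from them. For members called higher in fetal kidney (101) DESeq2 gave 356, sex as a covariate 1, and leaving out 1 fetus 0 to 177. For members called lower there (24) the values were 233, 0 and 0 to 144, and calls over all genes moved with them. As a percent of all members, calls between retro-orbital and kidney tumors (19.5%) were 35% with DESeq2, 10.1% with the mouse as a block, 12% without the kidney tumors of mice 4 and 5 and 3.96 to 22.1% without a mouse. Of all genes tested 11.1% were called there, and 22%, 5.24%, 8.24% and 1.92 to 13.7% in the same order. Calls between brain and kidney tumors (25%) were 7.91% with the block and 13 to 19.7% without a mouse, where all genes gave 17.8%, 4.08% and 6.1 to 16.2%. Calls between brain and retro-orbital tumors (4.13%) were 9.89% with DESeq2, 0% with the block, 2.02% without the retro-orbital tumor of mouse 5 and 0.17 to 7.49% without a mouse. For all genes the share was 6.65%, and 15.9%, 0.0133%, 3.17% and 0.5 to 10.6% in the same order. The calls over members thus moved together with those over all genes. The cause was not tested. Leaving out kidney tumors of mice 4 and 5, and the retro-orbital tumor of mouse 5 from the site fits, was chosen after seeing the data.

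With RLE scaling the gap closed for Narf (0.105), Ogn (0.00701), Pcna (-0.00399), Rragd (-0.016). With upper quartile scaling the gap closed for Echs1 (0.0948), Etfdh (0.0658), Hoxd3os1 (0.0922), Ogn (0.0216), Pcna (-0.0781), Uqcrc2 (0.103). The other named members kept their side of the rule under both scalings. Limits are the small margin of most members, the loss of fetal calls without any of 6 fetuses, the loss of brain and retro-orbital calls with the block, 3 control mice, 3 fetal controls, and the tubule and muscle RNA given above.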
